A study of Homo sapiens with 36 samples.

Results

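The genes described here are 49 members of the BMP and TGF-beta pathways, a list of ligands, extracellular antagonists and modulators, latency proteins, receptors, SMAD proteins and transcriptional targets. They were found by symbol among the 28516 genes of the count table, and all 49 are listed there. RNA-seq was performed on cultured human neural stem cells (hNSC) from a commercial stock, harvested 48 h after infection with lentivirus, with 6 libraries in each of 6 treatments. In MEIS1-OE and MEIS2-OE the homeodomain transcription factor MEIS1 or MEIS2 was raised by CRISPR-activation, in which a Cas9 that does not cut (dCas9-VP64), a guide RNA and a helper fusion protein (MPH) are brought in by 3 viruses. In MEIS1-KO and MEIS2-KO the gene was cut by Cas9 from the vector lentiCRISPRv2, with viruses for 2 guides mixed for each gene. A non-targeting guide in the same machinery served as the control of each system (ctrl-OE, ctrl-KO). Such a guide directs no cut to a target gene. Cutting of DNA and lower MEIS1 or MEIS2 thus differ together between each knockout and ctrl-KO and cannot be told apart. No treatment is a clone, and each library is therefore an average over the infected culture.

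BMPs, GDFs, activins and TGF-betas are secreted dimers that bind pairs of type I and type II receptor kinases. BMP receptors phosphorylate SMAD1, SMAD5 and SMAD9, TGF-beta and activin receptors phosphorylate SMAD2 and SMAD3, and both groups enter the nucleus with SMAD4, while SMAD6 and SMAD7 inhibit the pathway. Extracellular antagonists such as GREM1, CHRD, NOG and FST hold the ligands away from the receptors, and LTBPs keep TGF-beta latent in the matrix. In neural stem cells BMP signals are known to raise the ID genes, which code for inhibitors of neuronal bHLH transcription factors, and to favour glial over neuronal fates.

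Levels are given as CPM, the reads of a gene scaled to the size of its library, with library sizes normalised by the TMM method. A gene passed a comparison at an adjusted p under 0.05 (quasi-likelihood F test of edgeR in 1 fit of all 36 libraries, two-sided, Benjamini-Hochberg adjustment over the 19689 genes tested), and it is called differentially expressed where the absolute log2 fold change was also above 0.58. All adjusted p-values below are from this test. Of the 49 genes, 48 were tested, and NOG, the BMP antagonist noggin, had too few counts with 3 reads in all 36 libraries. Libraries held 15429985 to 22940493 counts with a median of 20324720. MEIS1 rose from a mean of 17.8 to 310.2 CPM in MEIS1-OE and fell from 25.7 to 8.96 CPM in MEIS1-KO, and MEIS2 rose from 22.6 to 823.8 CPM in MEIS2-OE and fell from 25.8 to 12.1 CPM in MEIS2-KO, with no overlap between libraries. All 10 neural stem cell markers looked at, among them SOX2, NES and PAX6, were above 1 CPM in every treatment. Of the pluripotent cell markers, LIN28A and DPPA4 were above 1 CPM, while POU5F1 and NANOG reached at most 0.326 and 0.157 CPM in any library. Nothing in the labels says whether the 6 libraries of a treatment come from separate cultures, so p-values measure the spread between these libraries.

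Sequence is shown for 4 members on which the results below turn: GREM1, which was higher in all 4 MEIS treatments, TGFB3, which was higher in MEIS1-OE, and ID2 and SMAD9, which were lower in MEIS2-KO. The 250 bases before the first listed transcription start were taken from RefSeq (GRCh38.p14) and are printed 5′ to 3′ on the strand of the gene. They lie at chr15:32717754-32718003 on the plus strand for GREM1, chr14:75983012-75983261 on the minus strand for TGFB3, chr2:8681806-8682055 on the plus strand for ID2 and chr13:36920239-36920488 on the minus strand for SMAD9. Capitals mark matches on either strand to TGACAG, the core sequence that MEIS proteins are known to prefer, to CAGAC, the box bound by SMAD3 and SMAD4, and to GGCGCC, a GC-rich sequence bound by SMADs of the BMP branch, and no match overlapped another.
GREM1: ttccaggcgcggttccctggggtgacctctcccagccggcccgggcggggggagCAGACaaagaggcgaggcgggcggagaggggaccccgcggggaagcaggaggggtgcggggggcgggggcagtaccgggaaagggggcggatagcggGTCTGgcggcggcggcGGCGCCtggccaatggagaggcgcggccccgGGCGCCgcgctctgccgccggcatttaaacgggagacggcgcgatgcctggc
TGFB3: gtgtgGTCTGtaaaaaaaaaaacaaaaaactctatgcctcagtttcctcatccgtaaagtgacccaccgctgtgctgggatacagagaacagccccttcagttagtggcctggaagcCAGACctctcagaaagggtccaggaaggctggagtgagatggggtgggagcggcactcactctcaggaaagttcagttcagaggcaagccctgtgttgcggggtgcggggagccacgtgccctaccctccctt
ID2: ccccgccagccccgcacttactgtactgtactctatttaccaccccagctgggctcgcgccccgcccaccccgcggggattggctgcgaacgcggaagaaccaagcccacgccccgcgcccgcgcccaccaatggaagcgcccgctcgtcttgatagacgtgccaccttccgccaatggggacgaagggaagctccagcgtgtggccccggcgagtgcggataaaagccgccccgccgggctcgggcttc
SMAD9: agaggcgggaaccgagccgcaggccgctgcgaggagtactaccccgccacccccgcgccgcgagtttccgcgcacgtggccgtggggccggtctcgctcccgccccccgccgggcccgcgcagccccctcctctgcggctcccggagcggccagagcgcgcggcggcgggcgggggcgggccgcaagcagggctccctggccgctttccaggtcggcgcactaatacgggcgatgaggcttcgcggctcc
TGACAG occurred in none of these 4 windows, CAGAC occurred 2 times each in GREM1 and TGFB3, and GGCGCC occurred 2 times in GREM1. Among all 35116 windows of this length, 13.0% hold TGACAG, 38.0% hold CAGAC and 16.4% hold GGCGCC. Of the 43 pathway genes with a window, 6 held TGACAG, 15 held CAGAC and 14 held GGCGCC (14.0%, 34.9% and 32.6%). A match here is a description of the letters and not a bound site. GREM1 and TGFB3 each have 2 listed starts, and only the window before the first is shown for them.

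Of the 49 genes, 34 had a mean above 1 CPM in every treatment and 3 in some treatments. The remaining 12 stayed below 1 CPM in every treatment (BAMBI, BMP2, BMP4, BMP6, BMP8B, GDF5, GDF7, INHBA, INHBB, NODAL, NOG and TGFBI). These cells thus contained little mRNA of the ligands BMP2 and BMP4, of the activin subunits INHBA and INHBB, or of the secreted TGF-beta target TGFBI. Levels between genes were compared per length, as mean CPM per kb of the canonical transcript of each gene (GENCODE, GRCh37), which need not be the isoform these cells express. In ctrl-KO the highest of these levels was that of the BMP target ID3 with 59.1 ± 8.78 CPM per kb (SD, n = 6). The type I receptor TGFBR1 had 40.2 ± 1.97 CPM per kb (SD, n = 6), SMAD3 30.4 ± 0.649 and the ligand BMP7 28.8 ± 1.81. SMAD3 and BMP7 lay so close in this order that their libraries overlapped. Among ligands, BMP7 was followed by GDF11 with 10.45 and TGFB1 with 4.86 CPM per kb, and among receptors TGFBR1 was followed by ACVR1B with 13.0 and BMPR1A with 12.6 CPM per kb, whose ranges overlapped. FST, which binds activins, led the antagonists with 19.2 CPM per kb, and LTBP1 with 14.8 CPM per kb stood far above LTBP2. GREM1 and SMAD2 were left out of this order because their canonical transcripts, of 14575 and 34626 bases, are unusually long. Between the 6 libraries of a treatment, the median coefficient of variation of the 34 expressed genes ranged from 4.12% to 30.7% with a median of 9.28%, and it was highest for ID1 and GREM1.

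**Figure D1:**
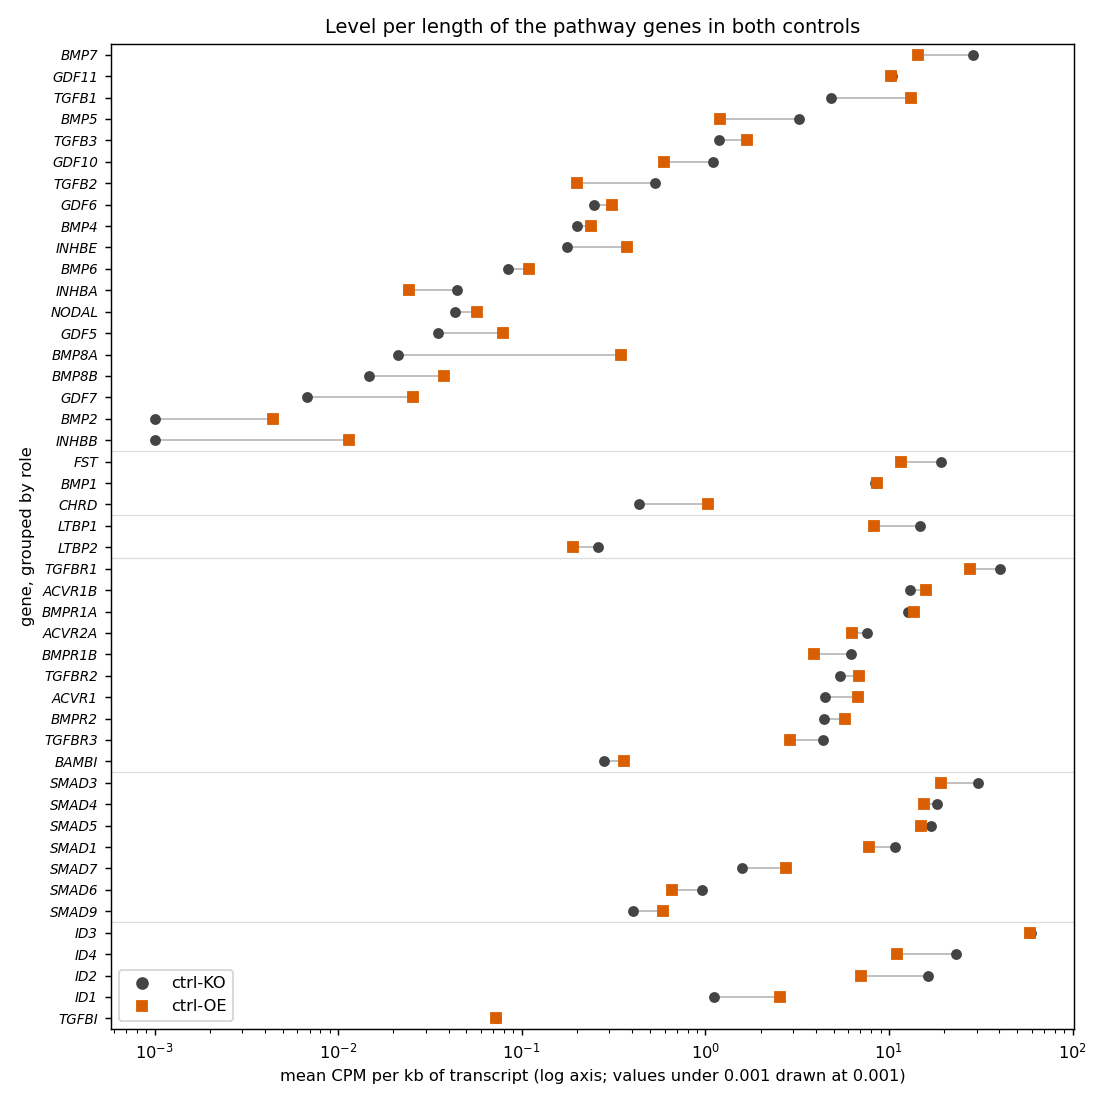
Mean level of the pathway genes in ctrl-KO (circles) and ctrl-OE (squares) in CPM per kb of canonical transcript on a log axis, grouped by role and ordered within it. ID3, TGFBR1, SMAD3 and BMP7 were highest in ctrl-KO, and values under 0.001 are drawn at 0.001.

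Between a MEIS treatment and its own control, 17 of the 48 genes passed in at least 1 of 4 comparisons (35.4%, against 17.7% of all genes), 16 passed only between the 2 controls (33.3%, against 38.3%), and 15 passed in neither (31.2%, against 44%). Over all genes tested, the share that passed was 9.1% in MEIS1-OE, 1.35% in MEIS2-OE, 1.46% in MEIS1-KO and 10% in MEIS2-KO, and 51.4% between the controls. GREM1 passed in all 4 MEIS comparisons, as did 0.0914% of all genes, and 14 genes passed in 1 comparison (29.2%, against 14.1%). With GREM1, BMP7 and BMPR1B passed in both knockouts (6.25%, against 1.37% of all genes). The 15 genes that passed nowhere included the ligands BMP2, BMP4, BMP6, BMP8B, GDF5, GDF6, INHBA and NODAL and the receptor BMPR1A. The others were the pseudoreceptor BAMBI, which lacks a kinase, the procollagen and chordin protease BMP1, the latency protein LTBP2, SMAD2, ID3 and TGFBI. BMP2 had 0 reads in all libraries of the 3 knockout-system treatments and 2, 4 and 7 reads in ctrl-OE, MEIS1-OE and MEIS2-OE. BMP1 had medians from 30.4 to 34.1 CPM over the 6 treatments, and LTBP2 from 1.42 to 2.73 CPM. GDF6 came nearest to passing among the ligands of this group, with a log2 fold change of 0.56 and an adjusted p of 0.0618 in MEIS2-OE. Both overexpressions were compared with the same ctrl-OE libraries and both knockouts with the same ctrl-KO libraries, so these comparisons are not independent of each other. In bulk RNA a lower level can mean fewer cells of a type or less RNA per cell, which cannot be told apart here.

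**Figure D2:**
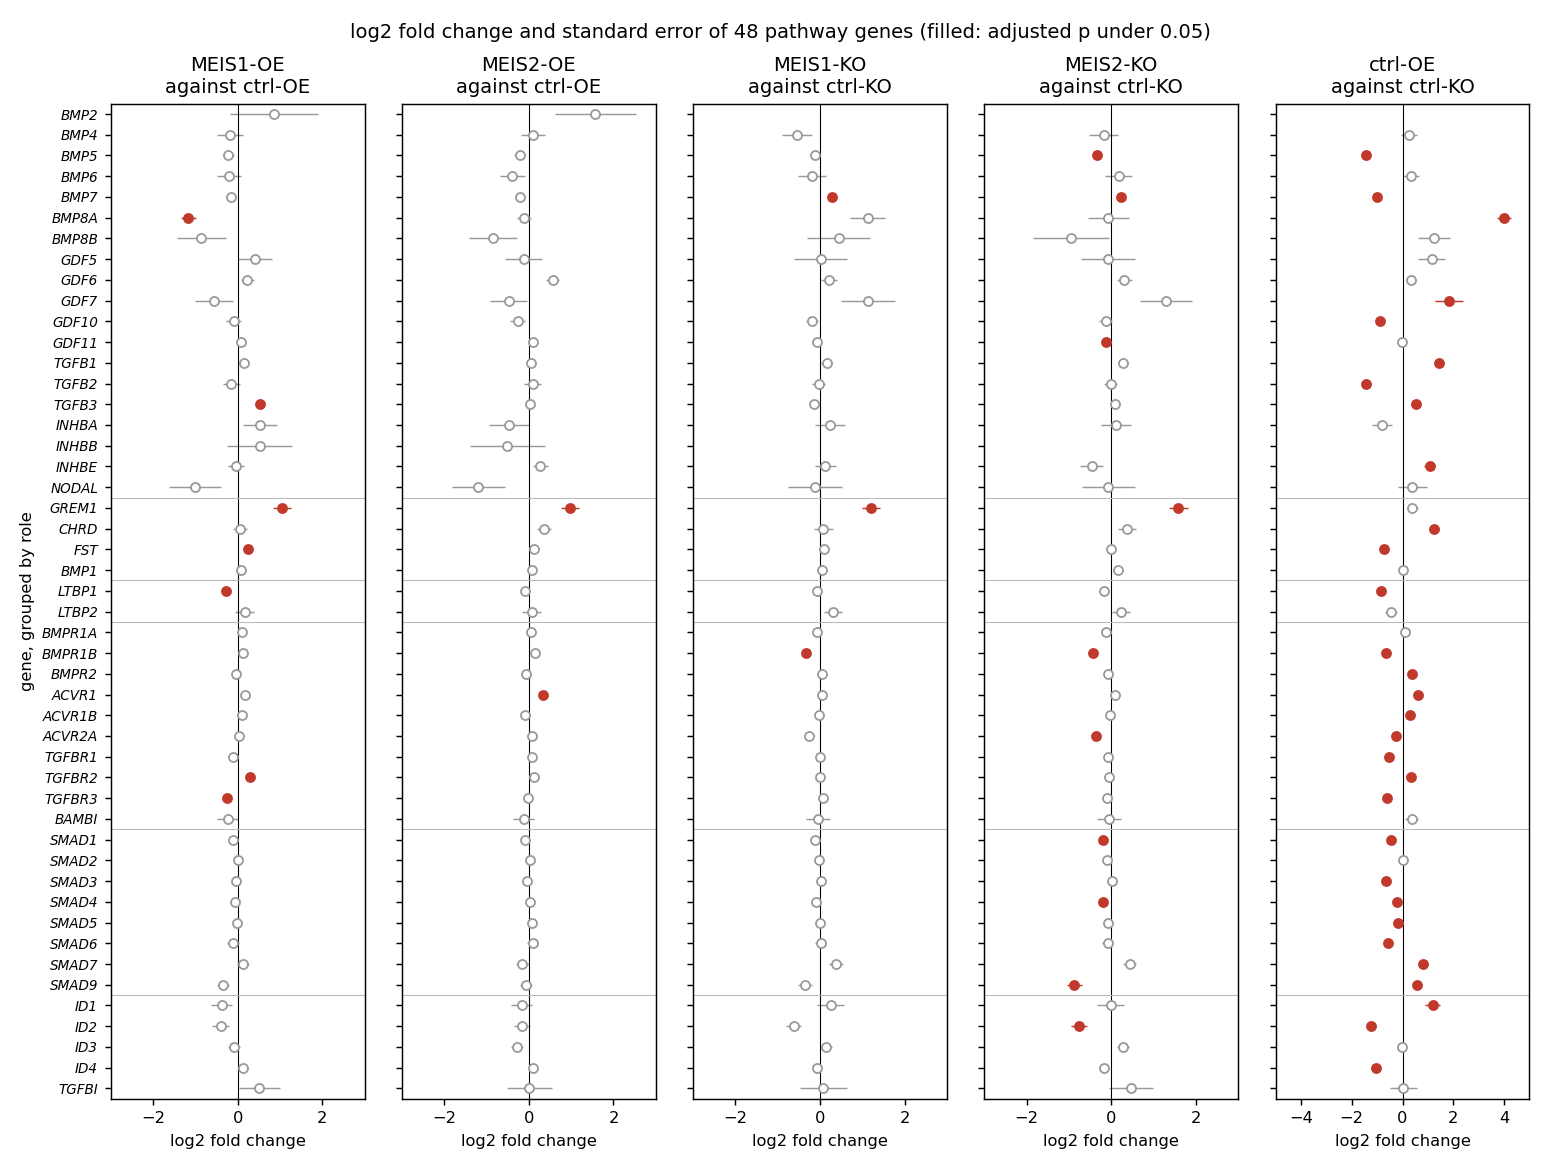
Log2 fold change (points) and standard error (lines) of the 48 tested genes in 5 comparisons, grouped by role from ligands at the top to targets at the bottom, with filled points where the adjusted p was under 0.05. GREM1 is filled to the right of 0 in all 4 MEIS comparisons, and most filled points are in the comparison of the controls, which has a wider axis. Genes with 0 reads in a whole treatment (BMP2, INHBB) are not drawn in its comparisons.

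GREM1 codes for gremlin, a secreted antagonist of BMP2, BMP4 and BMP7, and lies on chromosome 15 of GRCh37 from 33010205 to 33037307. In ctrl-OE its level was 10.6 CPM in the lowest library, 22.1 CPM at the median and 24.9 CPM in the highest. In MEIS1-OE these values were 29.2, 36.8 and 65.1 CPM, and in MEIS2-OE 25.4, 40.2 and 51.8 CPM. Every library of either overexpression thus lay above every ctrl-OE library, although the lowest MEIS2-OE library did so by a narrow margin. The log2 fold change was 1.06 (SE 0.21, adjusted p = 0.000518) in MEIS1-OE and 0.96 (SE 0.21, adjusted p = 0.00749) in MEIS2-OE. With replicate 4 of each treatment left out, the adjusted p in MEIS2-OE was 0.0684.

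In the knockouts GREM1 was higher as well. Its lowest, median and highest levels were 11.2, 15.4 and 18.1 CPM in ctrl-KO, 21.5, 33.2 and 54.8 CPM in MEIS1-KO and 37.1, 42.3 and 59.9 CPM in MEIS2-KO. Neither knockout overlapped the control, and the MEIS1-KO libraries were the more widely scattered. The log2 fold change was 1.20 (SE 0.22, adjusted p = 0.00135) in MEIS1-KO and 1.58 (SE 0.22, adjusted p = 1.01e-05) in MEIS2-KO. GREM1 was thus higher both with more and with less MEIS mRNA. Taken as the overexpression effect minus the knockout effect, its log2 value was -0.15 (95% interval -0.74 to 0.45, adjusted p = 0.93) for MEIS1 and -0.62 (-1.22 to -0.03, adjusted p = 0.325) for MEIS2. Between MEIS1-OE and MEIS2-OE the log2 difference was 0.09 (95% interval -0.31 to 0.50), and between MEIS1-KO and MEIS2-KO it was -0.38 (-0.79 to 0.03). The exons of GREM1 overlap those of GREM1-AS1 on the other strand. The strand setting of the counting is not stated, and the part of antisense reads was not tested.

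**Figure D3:**
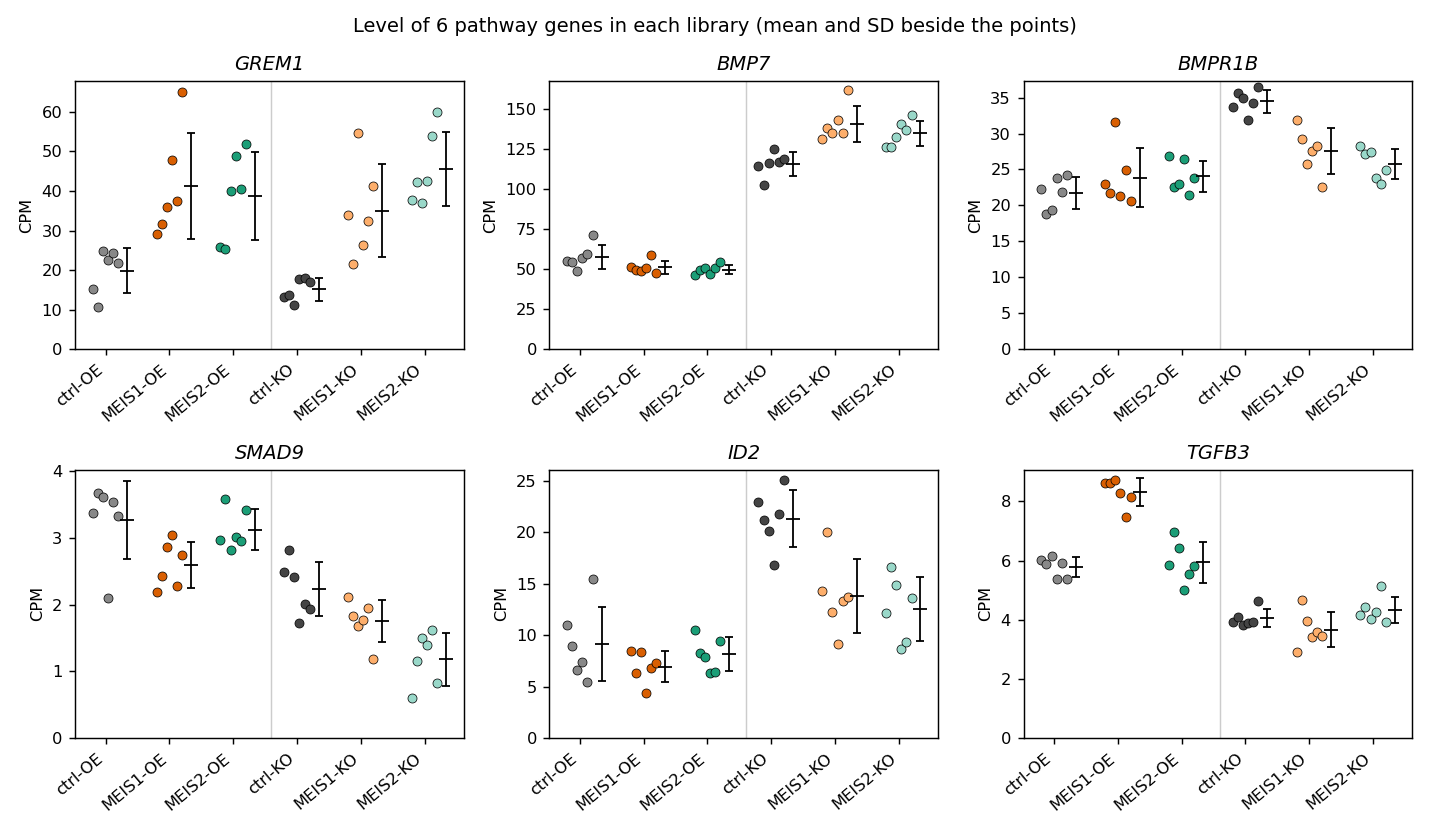
Level in CPM of 6 pathway genes in each of the 36 libraries (points), with the mean and SD of 6 libraries beside them and the overexpression treatments left of the grey line. GREM1 lies above its control in all 4 MEIS treatments, BMP7 and BMPR1B shift in opposite directions in both knockouts, SMAD9 and ID2 are lowest relative to control in MEIS2-KO, and TGFB3 is above ctrl-OE in MEIS1-OE.

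In MEIS1-OE, 7 of 48 genes passed (14.6%), against 9.1% of all genes tested, 4 of them higher (5.52% of all genes) and 3 lower (3.58%), and 2 of them (GREM1 and BMP8A) were differentially expressed (4.17%, against 2.84%). The libraries of 4 genes did not overlap ctrl-OE (8.33%, against 4.38%). The median log2 fold change was -0.02 over the pathway genes and -0.00131 over all genes. TGFB3 is the TGF-beta ligand on chromosome 14 (GRCh37, 76424440 to 76449354) whose window before the first listed start is printed above. Its lowest, median and highest levels were 5.37, 5.90 and 6.15 CPM in ctrl-OE and 7.46, 8.45 and 8.71 CPM in MEIS1-OE, without overlap. This was a log2 fold change of 0.52 (SE 0.08, adjusted p = 1.29e-05). In MEIS2-OE the TGFB3 libraries ranged from 5.001 to 6.97 CPM and spanned the control, and the difference between the overexpressions was itself 0.48 on the log2 scale (SE 0.08, adjusted p = 4.86e-05). Exons of TGFB3 overlap those of TGFB3-AS1 on the other strand.

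BMP8A, a BMP ligand at low level, went the other way. The CPM of its lowest, median and highest library were 1.45, 1.98 and 2.28 in ctrl-OE and 0.503, 0.878 and 1.14 in MEIS1-OE, without overlap. The log2 fold change was -1.16 (SE 0.18, adjusted p = 5.95e-06), and MEIS1-OE was also below MEIS2-OE by a log2 difference of -1.05 (SE 0.18, adjusted p = 4.94e-05). BMP8A is uncertain as a gene, since BMP8B is a near-identical copy, and in exons BMP8A overlaps PPIEL on the other strand. In ctrl-KO BMP8A did not exceed 0.294 CPM.

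The other genes that passed in MEIS1-OE moved by less. The activin antagonist FST rose from 24.7 to 28.4 CPM in ctrl-OE to 28.9 to 35.8 CPM in MEIS1-OE (lowest to highest library), a log2 fold change of 0.24 (SE 0.06, adjusted p = 0.00458) without overlap. TGFBR2, the type II receptor of TGF-beta, had medians of 30.7 and 38.9 CPM and a log2 fold change of 0.30 (SE 0.07, adjusted p = 0.00206). The coreceptor TGFBR3 (betaglycan), which presents ligand to TGFBR2, fell from a median of 18.5 to 14.7 CPM with a log2 fold change of -0.25 (SE 0.07, adjusted p = 0.0152), and this passed in 8 of 13 alternative settings. LTBP1, which binds latent TGF-beta, fell from a median of 56.1 to 42.8 CPM (log2 fold change -0.28, SE 0.07, adjusted p = 0.00352). For TGFBR2, TGFBR3 and LTBP1 the libraries of treatment and control overlapped. No SMAD gene and no ID gene passed in MEIS1-OE. ID2, for example, had medians of 8.18 CPM in ctrl-OE and 7.03 CPM in MEIS1-OE and an adjusted p of 0.256.

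In MEIS2-OE, 2 of 48 genes passed (4.17%), against 1.35% of all genes, both higher (1.07% of all genes were higher and 0.279% lower) and both without overlap to ctrl-OE (1.33% of all genes). GREM1 was differentially expressed, as were 0.498% of all genes. Besides GREM1 this was ACVR1, the type I receptor ALK2 of the BMP branch. Its libraries ranged from 20.7 to 24.2 CPM with a median of 23.2 CPM in ctrl-OE and from 26.5 to 30.0 CPM with a median of 28.8 CPM in MEIS2-OE. The log2 fold change of 0.33 (SE 0.06, adjusted p = 0.00131) passed in all 13 alternative settings. In MEIS1-OE the ACVR1 libraries overlapped the control (log2 fold change 0.17, adjusted p = 0.0814), and the difference between both overexpressions was -0.15 (95% interval -0.28 to -0.03, adjusted p = 0.151). The median log2 fold change in MEIS2-OE was 0.01 over the pathway genes and -0.01 over all genes. No ligand, SMAD or target gene of the list passed.

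In MEIS1-KO, 3 of 48 genes passed (6.25%), against 1.46% of all genes, and the libraries of all 3 stood apart from ctrl-KO (1.39% of all genes). GREM1 and BMP7 were higher (1.03% of all genes) and BMPR1B was lower (0.432%), and GREM1 was differentially expressed (0.29% of all genes). BMP7, a BMP ligand on chromosome 20 (GRCh37, 55743809 to 55841697), had a lowest, median and highest level of 103.0, 116.9 and 125.1 CPM in ctrl-KO and 131.4, 136.9 and 161.9 CPM in MEIS1-KO. In MEIS2-KO these levels were 126.4, 135.1 and 146.5 CPM, so that both knockouts lay above every control library. The log2 fold change was 0.28 (SE 0.06, adjusted p = 0.012) in MEIS1-KO and 0.22 (SE 0.06, adjusted p = 0.0209) in MEIS2-KO, and these passed in 11 and in 10 of 13 alternative settings.

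In the overexpressions BMP7 did not pass. Its medians were 55.9 CPM in ctrl-OE, 50.4 CPM in MEIS1-OE and 50.01 CPM in MEIS2-OE, and the log2 fold changes of -0.17 and -0.21 had adjusted p of 0.111 and 0.15. The overexpression effect minus the knockout effect was tested directly and passed for both paralogs, at -0.45 (SE 0.09, adjusted p = 0.0015) for MEIS1 and -0.43 (SE 0.09, adjusted p = 0.00381) for MEIS2 on the log2 scale.

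BMPR1B is a type I receptor kinase for BMPs and GDFs on chromosome 4 (GRCh37, 95679106 to 96079599). Its lowest, median and highest levels were 31.9, 34.6 and 36.4 CPM in ctrl-KO, 22.6, 27.9 and 31.9 CPM in MEIS1-KO and 22.9, 26.0 and 28.3 CPM in MEIS2-KO. The highest MEIS1-KO library came close to the lowest control, while all MEIS2-KO libraries lay clearly below. Its log2 fold change was -0.32 (SE 0.08, adjusted p = 0.0384) in MEIS1-KO, which passed in 8 of 13 alternative settings, and -0.42 (SE 0.08, adjusted p = 0.00107) in MEIS2-KO, which passed in all 13. In both overexpressions the libraries of BMPR1B overlapped ctrl-OE. The overexpression effect minus the knockout effect was 0.46 (SE 0.12, adjusted p = 0.0194) for MEIS1 and 0.57 (SE 0.12, adjusted p = 0.00371) for MEIS2 on the log2 scale. The related receptor BMPR1A had medians of 81.6, 77.0 and 73.2 CPM in ctrl-KO, MEIS1-KO and MEIS2-KO and passed in none of the 4 MEIS comparisons.

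In MEIS2-KO, 10 of 48 genes passed (20.8%), against 10% of all genes. Lower were 8 (16.7%, against 5.98%) and higher were 2 (4.17%, against 4.04%), and 3 (GREM1, SMAD9 and ID2) were differentially expressed (6.25%, against 1.58%). Libraries of 8 genes did not overlap ctrl-KO (16.7%, against 6.44%). The median log2 fold change was -0.07 over the pathway genes and -0.01 over all genes. The 8 lower genes were the SMADs SMAD1, SMAD4 and SMAD9, the receptors BMPR1B and ACVR2A, the ligands BMP5 and GDF11, and the target ID2.

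SMAD9, a signal-transducing SMAD of the BMP branch on chromosome 13 (GRCh37, 37418968 to 37495024), had lowest, median and highest levels of 1.73, 2.21 and 2.81 CPM in ctrl-KO and 0.603, 1.28 and 1.61 CPM in MEIS2-KO. No library overlapped, and the log2 fold change was -0.87 (SE 0.17, adjusted p = 0.00101). MEIS1-KO libraries lay between, from 1.18 to 2.11 CPM, and overlapped both (log2 fold change -0.35, adjusted p = 0.41). Between the 2 knockouts the difference of 0.53 on the log2 scale had a 95% interval of 0.17 to 0.88 and an adjusted p of 0.855. For MEIS2, SMAD9 had an overexpression effect minus knockout effect of 0.81 (SE 0.22, adjusted p = 0.0394), which passed in 8 of 13 alternative settings.

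SMAD4, the common partner of all signal-transducing SMADs, ranged from 148.9 to 168.2 CPM in ctrl-KO and from 133.1 to 143.1 CPM in MEIS2-KO, a log2 fold change of -0.20 (SE 0.05, adjusted p = 0.00581). SMAD1, which transduces BMP signals, had medians of 32.6 and 28.9 CPM with overlapping libraries and a log2 fold change of -0.20 (SE 0.06, adjusted p = 0.0225), which passed in 9 of 13 alternative settings (adjusted p up to 0.138). Exons of SMAD4 are shared with an unnamed gene on the same strand, and those of SMAD1 overlap SMAD1-AS1 on the other strand. The SMADs of the TGF-beta branch did not pass, with medians in ctrl-KO and MEIS2-KO of 74.9 and 71.2 CPM for SMAD2 and 197.1 and 200.6 CPM for SMAD3. SMAD5, with medians of 118.3 and 114.3 CPM, and the inhibitor SMAD6, with 3.60 and 3.68 CPM, did not pass either. The inhibitor SMAD7 had medians of 5.07 CPM in ctrl-KO, 6.68 CPM in MEIS1-KO and 7.38 CPM in MEIS2-KO, and its adjusted p in MEIS2-KO was 0.0765.

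ID2 lies on chromosome 2 (GRCh37, 8818975 to 8824591), and its exons overlap ID2-AS1 on the other strand. The lowest, median and highest levels were 16.8, 21.5 and 25.0 CPM in ctrl-KO and 8.63, 12.9 and 16.6 CPM in MEIS2-KO. No MEIS2-KO library reached the control, and the log2 fold change was -0.77 (SE 0.18, adjusted p = 0.00556). In MEIS1-KO ID2 had 9.16, 13.5 and 20.03 CPM, overlapping the control, with a log2 fold change of -0.63 (SE 0.18, adjusted p = 0.0755) that passed in 3 of 13 alternative settings. The other ID genes did not pass in either knockout. In MEIS2-KO ID3 had a log2 fold change of 0.29 (adjusted p = 0.213), ID4 of -0.18 (adjusted p = 0.3) and ID1 of -0.01 (adjusted p = 0.993).

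Among receptors and ligands in MEIS2-KO, ACVR2A, a type II receptor of activins and BMPs, fell from a median of 38.8 to 30.6 CPM (log2 fold change -0.35, SE 0.08, adjusted p = 0.00417) with overlapping libraries, and its exons overlap ORC4 on the other strand. BMP5 ranged from 11.8 to 13.8 CPM in ctrl-KO and from 8.95 to 11.2 CPM in MEIS2-KO (log2 fold change -0.33, SE 0.11, adjusted p = 0.0448). GDF11, a ligand of activin receptors, moved least, from a median of 91.1 to 84.6 CPM (log2 fold change -0.13, SE 0.04, adjusted p = 0.0311). Exons of GDF11 overlap SARNP on the other strand. BMP5 and GDF11 passed in 5 and 6 of 13 alternative settings, the fewest of the 10. The TGF-beta ligands did not pass in MEIS2-KO. TGFB1 had medians of 13.5 and 16.4 CPM in ctrl-KO and MEIS2-KO (adjusted p = 0.145), and the type I receptor TGFBR1 had 256.8 and 248.8 CPM (adjusted p = 0.44). In the same MEIS2-KO libraries the summed levels of 3 marker lists lay above those of every ctrl-KO library. The neural stem cell markers summed to 4520 to 5023 CPM in ctrl-KO and 5063 to 6146 CPM in MEIS2-KO (10 of 10 above 1 CPM in both), and the neuron markers to 19.9 to 23.7 and 25.4 to 31.5 CPM (3 of 7 above 1 CPM in both). The sum of the endothelial and blood cell markers ranged from 150.2 to 162.7 CPM in ctrl-KO, from 150.4 to 203.0 CPM in MEIS1-KO and from 182.9 to 231.8 CPM in MEIS2-KO. Most of this sum was KDR, 4, 5 and 5 of the 6 markers were above 1 CPM in these groups, and the blood cell marker PTPRC was at 0 in all libraries of both knockouts. The part of these 3 shifts in the pathway genes was not tested.

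For a direct comparison of the paralogs, 5 of 48 genes passed between MEIS1-OE and MEIS2-OE (10.4%, against 7.75% of all genes), TGFB3 and BMP8A as given above and 3 receptors. BMP8A was the 1 gene differentially expressed (2.08%, against 2.7% of all genes), and the libraries of 2 genes did not overlap (4.17%, against 4.09%). In ACVR1B, a type I receptor of activins, MEIS1-OE libraries ranged from 71.9 to 81.0 CPM and MEIS2-OE libraries from 63.5 to 71.9 CPM, which nearly separates them (log2 difference 0.19, SE 0.04, adjusted p = 0.00178). TGFBR1 had medians of 162.9 and 187.8 CPM (log2 difference -0.19, SE 0.06, adjusted p = 0.0246), and TGFBR3 of 14.7 and 18.2 CPM (log2 difference -0.23, SE 0.07, adjusted p = 0.033), both with overlapping libraries. These receptor differences passed in 9 of 13 alternative settings for TGFBR1 (adjusted p up to 0.142) and in 8 for TGFBR3 (up to 0.237). Neither ACVR1B nor TGFBR1 passed against ctrl-OE in either overexpression. Between MEIS1-KO and MEIS2-KO, 0 of 48 genes passed by edgeR or by DESeq2 (0.0152% of all genes passed by edgeR). For BMP7 the 95% interval of the difference between the knockouts was -0.06 to 0.19 and for ID2 it was -0.23 to 0.51 on the log2 scale.

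Where overexpression and knockout effects of 1 paralog were set against each other in the same model, 4 of 48 genes passed for MEIS1 (8.33%, against 3.48% of all genes) and 5 for MEIS2 (10.4%, against 2.57%). BMP7 and BMPR1B passed for both. The MEIS1 comparison also held TGFB3, with 0.66 on the log2 scale (SE 0.13, adjusted p = 0.000636), and BMP8A, with -2.29 (SE 0.45, adjusted p = 0.001) and the uncertainty named above. The knockout side of BMP8A rested on few reads, 13 in ctrl-KO and 29 in MEIS1-KO. It did not pass by itself (log2 fold change 1.13, adjusted p = 0.222). The MEIS2 comparison also held SMAD9, ACVR2A with 0.42 (SE 0.12, adjusted p = 0.0387) and GDF11 with 0.22 (SE 0.06, adjusted p = 0.0202). ACVR2A and GDF11 each passed there in 8 of 13 alternative settings, with adjusted p up to 0.216 and 0.119.

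The 2 controls differed from each other in far more of these genes than any MEIS treatment did from its control. Between ctrl-OE and ctrl-KO, 31 of 48 genes passed (64.6%, against 51.4% of all genes), 14 higher (27.5% of all genes) and 17 lower (23.9%) in ctrl-OE, and 20 were differentially expressed (41.7%, against 22.1%). Libraries of 28 genes did not overlap (58.3%, against 31.8%). By role, 6 ligands were higher and 4 lower of 19, and 4 receptors and coreceptors were higher and 4 lower of 10, with BAMBI counted among the 10. Of 8 SMADs 2 were higher and 5 lower, and of 5 targets 1 was higher and 2 lower. The CRISPR system, the number of viruses and the non-targeting vector differ together between the controls and cannot be told apart. The summed level of the neural stem cell markers was 3057 to 3931 CPM in ctrl-OE and 4520 to 5023 CPM in ctrl-KO, and that of the mesenchymal and neural crest markers 301.8 to 455.5 and 688.9 to 880.9 CPM, with FOXD3 at 0 and 5 of 8 above 1 CPM in both. Also lower in ctrl-OE, without overlap, were the sums of the astrocyte markers (104.7 to 125.6 against 246.4 to 270.1 CPM), the pluripotent cell markers (398.0 to 440.7 against 556.3 to 664.5 CPM), the endothelial and blood cell markers (99.5 to 129.8 against 150.2 to 162.7 CPM) and the oligodendrocyte lineage markers (27.8 to 30.2 against 32.8 to 39.5 CPM), while those of the neuron markers overlapped. Few genes carried some of these sums. Above 1 CPM were 2 of 6 astrocyte markers in ctrl-OE and 3 in ctrl-KO, and 1 of 7 oligodendrocyte lineage markers in ctrl-OE and 2 in ctrl-KO. In both controls 2 of 5 pluripotent cell markers and 4 of 6 endothelial and blood cell markers were above 1 CPM. The part of all these shifts in the pathway genes was not tested.

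Among ligands, BMP7 had a median of 55.9 CPM in ctrl-OE and 116.9 CPM in ctrl-KO, a log2 fold change of -1.01 (SE 0.06, adjusted p = 4e-16). BMP5 had 4.81 and 13.0 CPM (log2 fold change -1.44, SE 0.11, adjusted p = 1.63e-13), and TGFB2 1.32 and 2.97 CPM (log2 fold change -1.43, SE 0.17, adjusted p = 6.31e-09). TGFB1 stood opposite to TGFB2, with 35.9 CPM in ctrl-OE and 13.5 CPM in ctrl-KO and a log2 fold change of 1.43 (SE 0.12, adjusted p = 2e-13). BMP8A was detected with 1.98 CPM in ctrl-OE and 0.0761 CPM in ctrl-KO (log2 fold change 4.002, SE 0.27, adjusted p = 1.57e-15). Exons of TGFB1 overlap HNRNPUL1 on the other strand. Differences thus ran in both directions within the TGF-beta ligands. Of the BMP ligands given here only BMP8A was higher in ctrl-OE, on 13 reads in ctrl-KO and with the uncertainty named above.

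For the other roles, FST had a median of 26.8 CPM in ctrl-OE and 43.5 CPM in ctrl-KO (log2 fold change -0.73, SE 0.06, adjusted p = 1.47e-13), and LTBP1 had 56.1 and 94.4 CPM (log2 fold change -0.83, SE 0.07, adjusted p = 1.05e-13). In the receptors, TGFBR1 (log2 fold change -0.55, SE 0.06, adjusted p = 7.39e-11) and TGFBR3 (-0.60, SE 0.07, adjusted p = 2.1e-09) were lower in ctrl-OE, while ACVR1 (0.61, SE 0.07, adjusted p = 3.48e-10) was higher. The smallest adjusted p of all 48 genes was that of SMAD3, with 116.7 to 132.2 CPM in ctrl-OE and 189.9 to 201.8 CPM in ctrl-KO (log2 fold change -0.65, SE 0.04, adjusted p = 1.82e-17). ID4 fell with a log2 fold change of -1.06 (SE 0.10, adjusted p = 3.25e-11), from a median of 90.7 CPM in ctrl-KO to 40.7 CPM in ctrl-OE. ID3 had medians of 53.5 and 57.4 CPM and did not pass (adjusted p = 0.958), nor did GREM1 (log2 fold change 0.38, adjusted p = 0.15), although GREM1 passed in every MEIS comparison. The other genes that passed ranged from a log2 fold change of -1.23 for ID2 to 1.83 for GDF7, which had 32 reads in ctrl-OE and 7 reads in ctrl-KO, apart from INHBB, which had 5 reads in ctrl-OE and 0 reads in ctrl-KO. These were the receptors BMPR1B, BMPR2, ACVR1B, ACVR2A and TGFBR2, the ligands TGFB3, GDF10 and INHBE, the BMP antagonist CHRD, the SMADs SMAD1, SMAD4, SMAD5, SMAD6, SMAD7 and SMAD9, and ID1, beside ID2, GDF7 and INHBB.

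A second list of 77 genes of the same pathways, set down by role, was looked at beside the first, and 69 of them were tested. Like the first, it was drawn up with earlier results of these data known, so its shares are not an independent check. In MEIS1-OE 6 passed (8.7%, against 9.1% of all genes), in MEIS2-OE 3 (4.35%, against 1.35%), in MEIS1-KO 6 (8.7%, against 1.46%) and in MEIS2-KO 19 (27.5%, against 10%). Of the 19, 11 were higher (15.9%, against 4.04%) and 8 lower (11.6%, against 5.98%), and by role 7 of 13 target genes were higher and 0 lower. In the comparison of the overexpression effect with the knockout effect, 2 genes of this list passed for MEIS1 (2.9%, against 3.48% of all genes) and 11 for MEIS2 (15.9%, against 2.57%). Between the overexpressions 9 passed (13%, against 7.75%), between the knockouts 0 (0.0152% of all genes), and between the controls 43 (62.3%, against 51.4%). The higher targets in MEIS2-KO included TAGLN, ACTA2, COL1A1, MSX1, ATOH8 and TNS1. Most are known as genes of the TGF-beta response in many cell types, while MSX1 and ATOH8 are known targets of BMPs.

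TAGLN, a smooth muscle actin-binding protein, had medians of 197.2 CPM in ctrl-KO, 280.4 CPM in MEIS1-KO and 339.7 CPM in MEIS2-KO, with every knockout library above the control. Its log2 fold change was 0.76 (SE 0.17, adjusted p = 0.012) in MEIS1-KO and 0.88 (SE 0.17, adjusted p = 0.000821) in MEIS2-KO. ACTA2, which codes for smooth muscle actin and was chosen here after its values were seen, ranged from 97.6 to 106.2 CPM in ctrl-KO, from 121.3 to 137.6 CPM in MEIS1-KO and from 132.0 to 151.4 CPM in MEIS2-KO, with log2 fold changes of 0.36 (SE 0.05, adjusted p = 0.000206) and 0.49 (SE 0.05, adjusted p = 1.45e-07). The libraries of TAGLN and ACTA2 thus stood above ctrl-KO in both knockouts. Exons of ACTA2 overlap those of FAS and ACTA2-AS1 on the other strand, and exons of TAGLN overlap those of PCSK7 on the other strand. Both also share exons with an unnamed gene on the same strand. The part of reads from these genes was not tested. The collagen gene COL1A1 had a log2 fold change of 0.82 (SE 0.22, adjusted p = 0.0408) in MEIS1-KO with overlapping libraries and of 1.06 (SE 0.22, adjusted p = 0.00114) in MEIS2-KO without overlap. MSX1, a homeobox gene, had medians of 0.828 and 1.73 CPM in ctrl-KO and MEIS2-KO (log2 fold change 0.96, SE 0.25, adjusted p = 0.01). ENG (endoglin), a coreceptor known from endothelial cells, had a log2 fold change of 0.67 (SE 0.15, adjusted p = 0.00264) in MEIS2-KO, and the ligand GDF15 of 0.84 (SE 0.17, adjusted p = 0.00136). BMP3, a ligand that acts against other BMPs, was the differentially expressed gene of this list that was lower in MEIS2-KO, with medians of 8.91 and 5.64 CPM and a log2 fold change of -0.71 (SE 0.14, adjusted p = 0.00103). The mesenchymal and neural crest markers summed to 688.9 to 880.9 CPM in ctrl-KO, 768.5 to 1043 CPM in MEIS1-KO and 736.6 to 934.1 CPM in MEIS2-KO, which overlapped, and ENG moved with the endothelial markers given above. Their part in these differences was not tested.

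**Figure D4:**
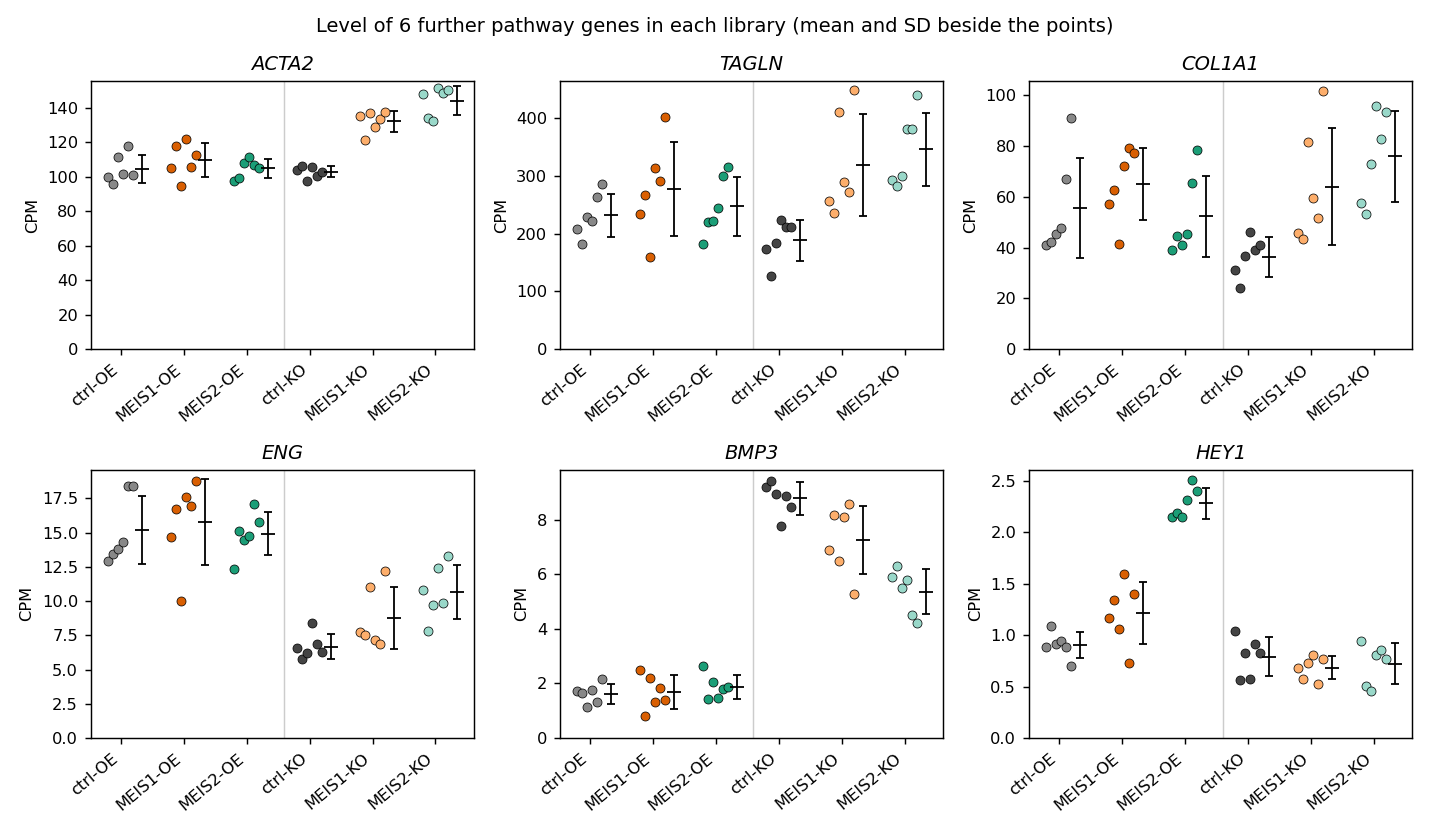
Level in CPM of 6 genes from the second list in each of the 36 libraries (points), with the mean and SD of 6 libraries beside them and the overexpression treatments left of the grey line. ACTA2 and TAGLN lie above ctrl-KO in both knockouts, BMP3 lies below it in MEIS2-KO, and HEY1 is above ctrl-OE in MEIS2-OE.

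In the overexpressions, HEY1, a target of Notch and BMP signals, was 0.703 to 1.09 CPM in ctrl-OE and 2.14 to 2.50 CPM in MEIS2-OE (log2 fold change 1.32, SE 0.15, adjusted p = 6.21e-08), and MEIS1-OE was below MEIS2-OE by a log2 difference of -0.91 (SE 0.14, adjusted p = 1.57e-05). The BMP antagonist gene NBL1 had a mean of 0.0720 CPM in ctrl-OE and 0.708 CPM in MEIS2-OE (log2 fold change 3.17, SE 0.49, adjusted p = 3.96e-05), and it is uncertain because its exons overlap MICOS10 on the same strand. ACVRL1 (ALK1), a type I receptor known from endothelial cells, ranged from 7.74 to 10.3 CPM in ctrl-OE and from 12.5 to 16.6 CPM in MEIS1-OE (log2 fold change 0.66, SE 0.12, adjusted p = 7.43e-05). EMILIN1, a matrix protein that holds back TGF-beta precursor processing, had medians of 17.2 and 32.2 CPM with overlapping libraries (log2 fold change 0.71, SE 0.20, adjusted p = 0.0168). The differences between the overexpressions passed for ACVRL1 with 0.63 (SE 0.12, adjusted p = 0.000179) and for EMILIN1 with 0.91 (SE 0.20, adjusted p = 0.00208). Beside them, the endothelial and blood cell markers summed to 99.5 to 129.8 CPM in ctrl-OE and 103.2 to 152.2 CPM in MEIS1-OE, and their part was not tested.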

How the data were processed

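RNA-seq of hNSC was analysed in 36 libraries, 6 for each of 6 treatments, grouped by the labels of the samples. Per the labels and the methods of the study, poly-A libraries (TruSeq stranded) were sequenced with paired-end reads of 100 bases and aligned to hg19 with STAR 2.4.2a (the submitters' processing notes name STAR 2.7.0a), and reads per gene were counted with HTSeq 0.6.0. The authors deposited these values as raw counts per gene. The annotation and the strand setting of the counting are not given in the sources used here, so antisense and overlapping genes are uncertain. The study selected libraries for RNA quality.

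Genes with at least 10 counts over all libraries were tested with edgeR 4.0.16 (R 4.3.3), using TMM library sizes, 1 quasi-likelihood fit of all 6 groups without covariates and two-sided F tests, with Benjamini-Hochberg adjustment over all genes tested. SE is the log2 fold change divided by the root of F. Intervals are 95% intervals from the SE. Depth was 15429985 to 22940493 counts per library, and the biological coefficient of variation was 0.0915. CPM per kb used canonical transcripts of GENCODE on GRCh37. Promoters came from RefSeq on GRCh38.p14, and no coordinates were converted.

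Named were members that passed (at most the 12 with the smallest p in a comparison), the 3 members with the highest mean CPM in each role and members under the filter. Genes of the second list were named with values where they were differentially expressed, except 1 gene that stays in the counts and whose results are not reported here, and 1 addition is marked. Members and lists were chosen with earlier results of these data known. The 13 alternatives were size factors of DESeq2's RLE method, 2 other filters (filterByExpr and none), a prior count of 2, a replicate block, a fit of the compared groups only, DESeq2 1.42.0 and leaving out each replicate number in turn. The procedure was also run on simulated counts, with means and spread taken from these libraries.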

Additional observations from a re-analysis of the deposited data

Results flagged for a closer look

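In the 19 genes that passed in any comparison other than that of the controls, 114 groups of 6 libraries were looked at. By Dixon's criterion, 6 groups held 1 library far from the others, where chance gives about 1 in 20. The highest library stood apart for BMP7 in MEIS1-OE (replicate 5, 59.1 CPM), TGFB3 in ctrl-KO (replicate 6, 4.64 CPM), ACVR2A in MEIS2-KO (replicate 1, 38.2 CPM), SMAD1 in ctrl-OE (replicate 6, 25.8 CPM) and SMAD4 in ctrl-OE (replicate 4, 145.4 CPM). The lowest stood apart for SMAD9 in ctrl-OE (replicate 4, 2.10 CPM).

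The effect of MEIS1-OE differed from that of MEIS2-OE in a direct test of edgeR for 5 of 48 genes (10.4%, against 7.75% of all genes). Both effects share their control. The log2 differences were 0.48 for the ligand TGFB3, -1.05 for the ligand BMP8A, 0.19 for the receptor ACVR1B, -0.19 for the receptor TGFBR1 and -0.23 for the coreceptor TGFBR3. Those of TGFBR1 and TGFBR3 passed in 9 and 8 of 13 alternative settings.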

How the results depend on the processing

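No member that passed changed direction in any alternative that tested it, which were all 13 except for GDF7 (12) and INHBB (10) between the controls, where filters or fewer libraries left them out. INHBB passed in 4 of its 10. With RLE size factors, other filters, a prior count of 2, a fit of the compared groups only, DESeq2 or the replicate block, the number of members that passed stayed within 1.5 times of the reported number in all 9 comparisons. Leaving out 1 replicate number of every treatment gave 6 to 8 members in MEIS1-OE (7 reported), 1 to 3 in MEIS2-OE (2), 1 to 3 in MEIS1-KO (3), 5 to 9 in MEIS2-KO (10), 29 to 31 between the controls (31), 3 to 6 for the overexpression minus knockout effect of MEIS1 (4), 2 to 4 for that of MEIS2 (5), 3 to 6 between the overexpressions (5) and 0 between the knockouts (0). The number moved by over 1.5 times without replicate 4 in MEIS2-OE (1) and in MEIS1-KO (1), without replicate 2, 4 or 5 in MEIS2-KO (5, 6 and 6), without replicate 1, 2, 3, 4 or 5 for the MEIS2 effects (3, 2, 3, 2 and 2), and without replicate 1, 2, 4 or 5 between the overexpressions (3 each). These fits hold fewer libraries. Of the members reported as passing, 6 of 7 in MEIS1-OE, 1 of 2 in MEIS2-OE, 1 of 3 in MEIS1-KO, 4 of 10 in MEIS2-KO, 28 of 31 between the controls, 3 of 4 for the MEIS1 effects, 2 of 5 for the MEIS2 effects and 3 of 5 between the overexpressions passed in every alternative that tested them.

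The labels give the treatments the same replicate numbers. Libraries with the same number in other groups deviated from their group means with a mean correlation of 0.0361, and 16 of 90 such pairs were above 0.1. For libraries with other numbers in other groups the mean was -0.00732, and 51 of 450 pairs were above 0.1. The labels do not say what a number stands for, and the reported fit did not take the numbers as pairs. With the replicate block, 7, 3, 4 and 11 members passed in MEIS1-OE, MEIS2-OE, MEIS1-KO and MEIS2-KO, 33 between the controls, 6 and 6 for the MEIS1 and MEIS2 effects, 6 between the overexpressions and 0 between the knockouts. Depth limits the 12 members under 1 CPM, whose reads are few.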
